A study of Homo sapiens with 2 samples.

Results

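The genes described here are 8 subunits of voltage-gated sodium channels, SCN1A, SCN2A, SCN3A, SCN8A, SCN9A, SCN2B, SCN3B and SCN4B, taken by symbol from the 61487 genes in the feature table shared by both libraries. They were read in serotonin neurons (SNs) made from WA09 (H9), a human embryonic stem cell line. The WT library came from cells with a TPH2-EGFP knockin, a reporter at the gene for the serotonin-synthesising enzyme of neurons. The FKO library came from cells that carry the same knockin and a FOXA2 knockout, on the background of a line (FKO2) with an indel and a premature stop codon. EGFP-positive cells of both were sorted at day 42 and run with the 10x Genomics 3' kit, 1 library per group. In parts of the study WT cells received a lower and FKO cells a higher dose of purmorphamine, an activator of SHH signaling, and the dose behind these libraries was not given in the sources used here. An effect of the genotype, the clone, the dose or the library therefore cannot be told apart.

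A voltage-gated sodium channel is a single large pore-forming protein (the α subunit) joined by small auxiliary β subunits. It opens when the membrane depolarizes and carries the inward current that starts an action potential. SCN3A is known as the pore subunit of embryonic neurons, SCN2A as an early one that stays in the adult brain, and SCN8A and SCN1A as those that rise as neurons mature. SCN9A is best known from pain-sensing neurons of the periphery. SCN3B encodes a β subunit bound without a disulfide bridge, and SCN2B and SCN4B those linked to the pore by one, SCN3B being the early and SCN2B the late member in brain. At rest, serotonin neurons fire slow, regular trains of action potentials. The comparison asks how the subunits stood in the FKO against the WT neurons, and whether late subunits were higher by more than early ones.

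Of 11052 barcodes labelled WT and 8806 labelled FKO, 5749 and 6978 passed the filters on depth, mitochondrial share and doublets. Cells with at least 1 UMI (a counted transcript molecule) of FEV, the transcription factor of serotonin neurons, numbered 5629 and 6352, with 75827486 and 53993103 UMIs and medians of 12530 and 7007.5 UMIs per cell. Libraries shared 21 barcode sequences. The 7 serotonin neuron markers beside FEV, which chose the cells, were detected in both libraries. In CPM (a gene's UMIs scaled to the library total), TPH2 (201 in WT and 170.4 in FKO) and DDC (272 and 238) were lower in FKO, and GATA3, GATA2, LMX1B (33.1 and 74.5), SLC6A4 (21.4 and 46.4) and SLC18A2 (19.4 and 53.8) were higher. FOXA2 was lower under the WT label (4.05 CPM) than under the FKO label (15.8 CPM), but a 3' tag does not show an indel, so that this checks nothing. The libraries are called by their labels. Every interval below is an exact 95% interval that covers counting error only, since with 1 library per group there was no replicate and no test.

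The ratios of all genes set the yardstick. For the 9616 genes that reached 10 CPM in WT or in FKO, the FKO over WT ratio had a median of 0.47 on the log2 scale, and 72.2% of the genes were above 0. A subunit's ratio is therefore also given relative to this median. At least 2-fold higher in FKO before this shift were 20.7% of the genes and 1.97% were as much lower. Relative to the median 5.64% were at least 2-fold higher and 10% at least 2-fold lower. Gene length moved with the ratio too, with a median of -0.02 for genes under 20 kb, 0.44 from 20 to 50 kb, 0.67 from 50 to 100 kb, 0.83 from 100 to 200 kb and 0.95 above 200 kb. In the same order of length, 2.97%, 3.31%, 5.39%, 8.45% and 17.5% of the genes were at least 2-fold above the median of all genes. The pore subunit genes are all long, from 117 kb (SCN3A) to 223 kb (SCN8A), and the β subunit genes are short, from 14.7 kb (SCN2B) to 26.1 kb (SCN3B). The part of length, depth or intronic reads in the ratios was not tested.

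All 8 subunits had higher CPM in the library labelled FKO, beside 72.2% of the genes that reached 10 CPM in either library. Among the 5 with at least 10 CPM, all 5 lay above the median of all genes. Before the shift 3 (SCN2A, SCN8A and SCN3B) were at least 2-fold higher, beside 20.7% of all genes. Relative to the median 1 was, SCN8A, beside 5.64% of all genes and 17.5% of those above 200 kb, as SCN8A is. SCN8A reached 10 CPM in FKO alone (8.65 CPM in WT), so that it entered these counts through the library where it was higher. Over all 8 members, the median relative log2 ratio was 1.02. Over the 5 abundant ones it was 0.60. The 8 include 3 that reached 10 CPM in neither library (SCN1A, SCN2B and SCN4B), whose ratios rest on few UMIs.

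The early pore subunit SCN3A had the smallest ratio. Its 10416 UMIs in WT gave 137 CPM (135 to 140), and its 11521 UMIs in FKO gave 213 CPM (210 to 217), a log2 ratio of 0.64 (0.60 to 0.67). Relative to all genes this was 0.17, that is 1.12-fold, and from 0.07 to 0.38 in the alternatives, lowest with the median taken over genes of at least 1 CPM and highest with at most 5% mitochondrial UMIs. SCN3A (ENSG00000153253) lies at chr2:165087522-165204067 on the minus strand in GENCODE release 29.

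SCN2A, the pore subunit that neurons use from early on, was 2.09-fold higher. It had 7946 UMIs or 105 CPM (102 to 107) in WT and 11840 UMIs or 219 CPM (215 to 223) in FKO, a log2 ratio of 1.07 (1.02 to 1.11) and 0.60 relative to all genes. In WT its UMIs were 0.763 of those of SCN3A, while in FKO they were 1.03 of them. SCN2A (ENSG00000136531, chr2:165194993-165392310, plus strand) overlaps SCN3A at the 5' ends of both, on opposite strands, and the 3' kit keeps the strand.

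SCN9A stood between these. It had 8415 UMIs or 111 CPM (109 to 113) in WT against 11015 UMIs or 204 CPM (200.2 to 208) in FKO, a log2 ratio of 0.88 (0.84 to 0.92) and 0.41 relative to all genes. SCN9A (ENSG00000169432) is in the same gene cluster, at chr2:166195185-166376001 on the minus strand, as is SCN1A (ENSG00000144285, chr2:165984641-166149214, minus strand).

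The late pore subunits had few UMIs and the larger ratios among the pore subunits. SCN8A, the main pore subunit of the mature axon initial segment, had 656 UMIs or 8.65 CPM (8.0 to 9.34) in WT and 1689 UMIs or 31.3 CPM (29.8 to 32.8) in FKO. Its log2 ratio was 1.85 (1.72 to 1.99), or 3.62-fold, and 1.38 relative to all genes. SCN8A (ENSG00000196876) lies at chr12:51590266-51812864. SCN1A, the pore subunit best known from fast-spiking inhibitory neurons, had 216 UMIs or 2.85 CPM in WT and 458 UMIs or 8.48 CPM in FKO. Its log2 ratio was 1.57 (1.34 to 1.81).

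Among the β subunits, SCN3B (ENSG00000166257, chr11:123629187-123655244) held 99.5% of the UMIs of the 3 members in WT and 99.1% in FKO. It had 9476 UMIs or 125 CPM (122 to 128) in WT and 17823 UMIs or 330.1 CPM (325 to 335) in FKO, a log2 ratio of 1.40 (1.37 to 1.44) and 0.93 relative to all genes. SCN2B (ENSG00000149575, chr11:118161951-118176673) had 48 UMIs in WT and 149 in FKO, or 0.633 and 2.76 CPM, with a log2 ratio of 2.12 (1.65 to 2.62). With each cell thinned to 2000 UMIs, in a single random draw, this ratio was 1.33. For SCN4B (ENSG00000177098, chr11:118133377-118152888), which supports the resurgent current of fast-firing neurons, 2 and 18 UMIs were counted. The ratio of 12.6-fold has an interval from 1.60 to 6.81 on the log2 scale.

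**Figure D1:**
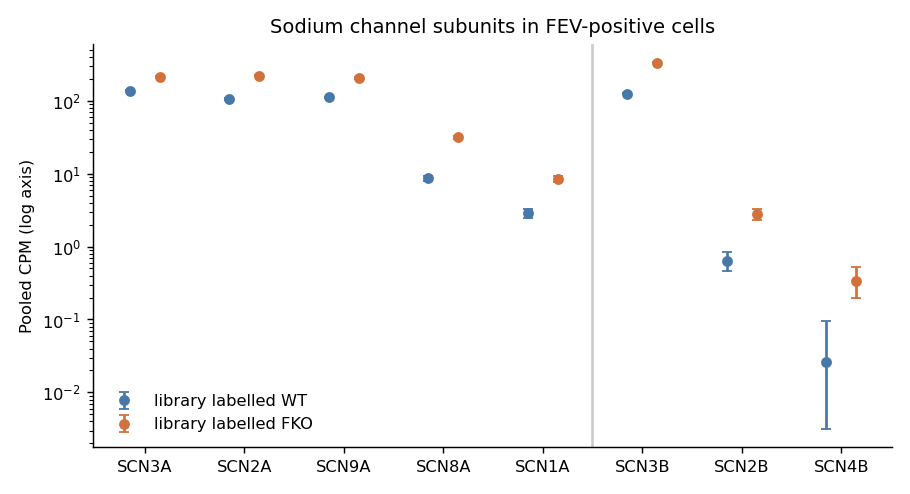
Pooled CPM of each subunit (log axis) in FEV-positive cells of the library labelled WT (blue) and FKO (orange), with exact 95% Poisson intervals; pore subunits are left of the line and β subunits right of it. The FKO point is above the WT point for all 8 genes, beside 72.2% of the genes that reached 10 CPM in either library. Among those with at least 10 CPM in either library, the gap runs from 213 against 137 CPM for SCN3A to 31.3 against 8.65 for SCN8A.

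Set beside the 200 genes nearest in expression, SCN3A was 0.47 above their median on the log2 scale, with 73% of them below it, SCN9A 0.72 above (84% below), SCN2A 0.90 (92.5%), SCN8A 1.35 (99%) and SCN3B 1.39 (96.5%). Only SCN3A lay within the middle 50% of these genes. With the 50 nearest genes instead, SCN3A was 0.41 above their median and just over their middle 50%, at 0.635 against 0.629. Because ratios were higher for longer genes, each subunit was also set beside the 200 genes nearest to it in expression among genes of like length (within 2-fold). SCN3A was 0.15 above the median of these genes on the log2 scale, with 60% of them below it, and SCN9A was 0.23 above, with 66.5% below. With length matched, both lay within the middle 50% of genes like them, so that the place of SCN9A depended on the match. SCN2A was 0.38 above, with 83.5% below. SCN8A was 0.95 above, with 97% below, and SCN1A 0.74 above, with 90% below. SCN3B, a short gene, was 1.38 above, with 99% of like genes below it. SCN2A, SCN8A, SCN1A, SCN3B and SCN2B lay above the middle 50% of the genes like them in both matches. For SCN4B the match cannot be read. Like genes needed more than 3 UMIs in both libraries, and SCN4B had 2 in WT. Its place above them was thus fixed by that limit.

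**Figure D2:**
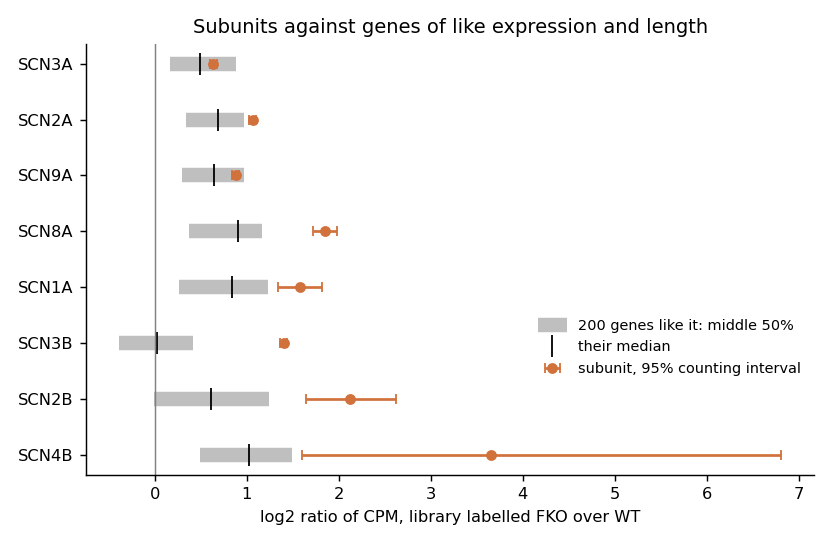
Log2 ratio of CPM (library labelled FKO over WT) for each subunit (orange, exact 95% counting interval) beside the 200 genes of like expression and length (grey bar, middle 50%; black tick, median). SCN3A and SCN9A lie inside their grey bars, and SCN3B at 1.40 lies far right of a bar centred at 0.03.

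The late over early comparison was made on ratios of ratios, which need no scaling to library totals. SCN8A over SCN3A was 0.063 in WT and 0.147 in FKO, 2.33-fold higher in FKO, with a log2 ratio of ratios of 1.22 (1.08 to 1.36). SCN2A over SCN3A was 0.43 (0.37 to 0.49) higher on this scale and SCN1A over SCN3A 0.94 (0.70 to 1.18). SCN9A over SCN3A came to 0.24 (0.19 to 0.30). Late over middle, SCN8A over SCN2A was 0.79 (0.65 to 0.93). In the β subunits, SCN2B over SCN3B was 0.72 (0.24 to 1.23), but it was -0.090 in a single random thinning of each cell to 2000 UMIs. In another random draw to this depth, the one used for detection, 6 WT cells and 30 FKO cells held an SCN2B UMI. How far the value moves between draws was not tested.

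In terms of what the pore subunit UMIs were made of, SCN3A was 37.7% (37.1 to 38.2) of 27649 UMIs in WT and 31.5% (31.1 to 32.0) of 36523 in FKO. SCN2A was 28.7% and 32.4%, SCN8A 2.37% and 4.62% and SCN1A 0.781% and 1.25%. SCN9A was at 30.4% (29.9 to 31.0) and 30.2% (29.7 to 30.6), whose intervals overlap. These are shares of 3' tags, and a gene's share is not its share of channels.

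The share of cells with a UMI depends on depth, so cells were thinned to 2000 UMIs each, which left out 24 WT and 51 FKO cells. Thinned, SCN3A was found in 23.6% (22.5 to 24.7) of WT and 35.0% (33.8 to 36.2) of FKO cells, whereas unthinned both stood at 77.3% and 77.4%. SCN2A was found in 18.2% and 33.8%, SCN9A in 18.5% and 31.9%, and SCN8A in 1.82% and 5.71%. SCN3B was found in 21.1% and 46.0%, the widest gap among the 8 genes at this depth. SCN1A was found in 0.678% and 1.54% of cells. As a background for free RNA, cycling cells (at least 10 UMIs of MKI67, TOP2A, CENPF and UBE2C, chosen after seeing the data, FEV allowed) held SCN2A in 0 of 39 WT cells, which allows up to 7.69% (3 counts of the total; the exact upper bound is 9.03%), and in 10% of 60 FKO cells. SCN3B was found in 5.13% of those WT cells and 20% of those FKO cells. Before thinning, 38 of the 39 WT and 40 of the 60 FKO cells held an FEV UMI. Most of them are therefore also among the FEV-positive cells, which makes them a poor background. The share of free RNA in them was not tested. SCN8A was at 2.56% (0.0649 to 13.5) and 1.67% (0.0422 to 8.94) in them, 1 cell in each library. With so few cells the set could not tell its WT or its FKO share from a background.

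Cells with no pore subunit among the 5 made up 50.1% of WT and 28.2% of FKO cells at 2000 UMIs. At 5000 UMIs they were 20.2% and 6.26%, where thinning left out 134 WT and 1116 FKO cells. At 2000 UMIs, 2 pore subunits were found in 10.8% and 24.0% of cells. At 2000 UMIs, SCN3A was found in 25% of WT cells with an SCN2A UMI and in 23.3% of those without, and in FKO in 35.4% and 34.8%. Likewise SCN8A was found in 6.03% of FKO cells with SCN3A and in 5.54% of those without, with overlapping intervals (5.07 to 7.11 and 4.86 to 6.29). At 5000 UMIs the shares of SCN3A stood apart, at 51.6% (49.5 to 53.7) of WT cells with SCN2A and 46.5% (44.8 to 48.2) of those without, and at 67.0% (65.3 to 68.6) and 60.9% (58.6 to 63.0) in FKO.

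**Figure D3:**
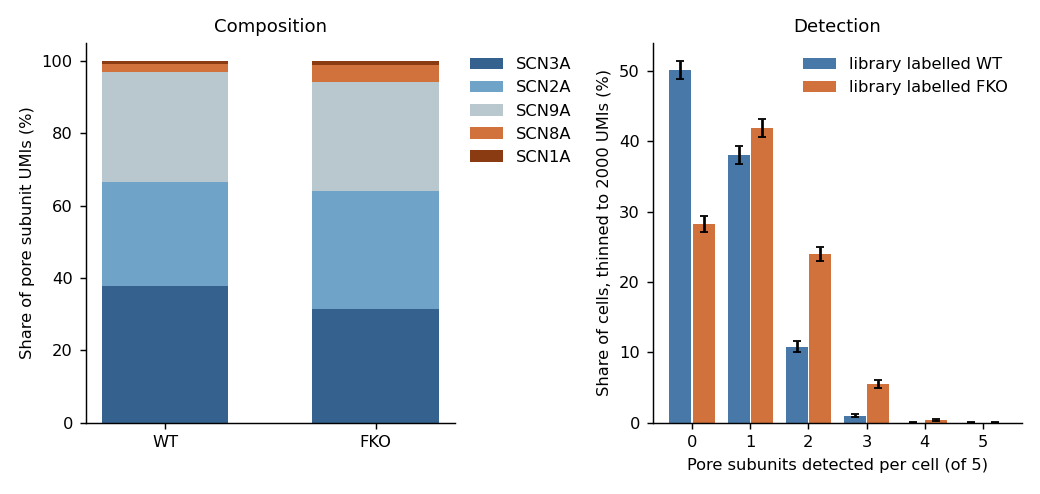
Left, share of pore subunit UMIs per gene in each library (27649 UMIs in WT and 36523 in FKO, as percent). Right, share of FEV-positive cells, thinned to 2000 UMIs, with 0 to 5 pore subunits detected, with exact 95% binomial intervals; cells with none are 50.1% in WT and 28.2% in FKO.

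Depth differed between the libraries, so the ratios were read within bins of UMIs per cell. SCN8A had a log2 ratio of 1.93 in cells of 5000 to 10000 UMIs, 1.95 from 10000 to 20000 and 2.02 above 20000. SCN3B was at 1.48, 1.43 and 1.62 in these bins, SCN2A at 1.21, 1.05 and 1.17, SCN9A at 0.92, 0.86 and 0.90, and SCN3A at 0.71, 0.51 and 0.63. The order SCN3A, SCN9A, SCN2A, SCN3B, SCN8A was the same in all 3 bins. Between 1000 and 5000 UMIs only 134 WT cells remained, where SCN8A was at 0.38 (-0.60 to 1.54) and SCN8A over SCN3A at 0.04 (-0.999 to 1.25).

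**Figure D4:**
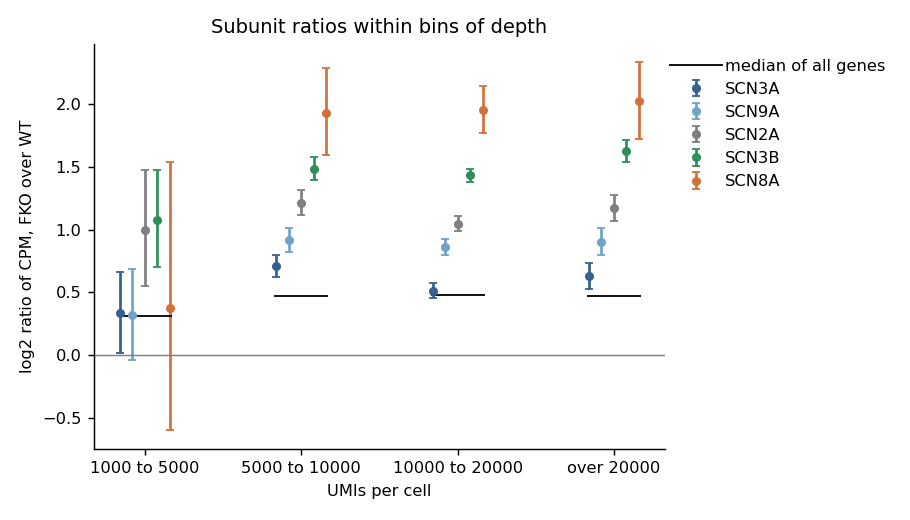
Log2 ratio of CPM (FKO over WT) for 5 subunits within bins of UMIs per cell, with exact 95% counting intervals, and the median of all genes in each bin (black line). In the 3 bins above 5000 UMIs SCN3A is lowest and SCN8A highest, while the bin of 1000 to 5000 UMIs, with 134 WT cells, has wide intervals.

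The mitochondrial share differed as well, with medians of 7.83% in WT and 5.27% in FKO. Within 5 to 10% mitochondrial UMIs, SCN8A was at 1.73, SCN3B at 1.32, SCN2A at 0.99, SCN9A at 0.85 and SCN3A at 0.60. Under 5%, where 306 WT cells remained, SCN3B was at 1.80 and SCN3A at 0.84. Mesenchymal markers (5 genes) summed to 33.0 CPM in WT and 140 in FKO, mostly through COL1A1 (1.93 and 47.7) and COL1A2 (2.62 and 52.6), while DCN (6.94 and 6.11) and LUM (10.1 and 8.78) were lower in FKO. Oligodendrocyte lineage markers (5 genes) summed to 2.80 and 17.8. Of these, SOX10 was at 0 in WT and 3.91 CPM in FKO. Progenitor markers (4 genes) summed to 183 CPM in WT and 127 in FKO, and neuron markers (6 genes) to 6550 and 9818. Of the neuron markers, DCX was at 924 and 2321 CPM, STMN2 at 4415 and 5818 and ELAVL4 at 124 and 150. These sums are not shifted by the median log2 ratio of all genes, 0.47. The subunit ratios were as large in the 5312 WT and 5844 FKO cells with at most 1 UMI of the markers of cycling, floor plate, mesenchymal, astrocyte and oligodendrocyte lineage cells. They were 1.83 for SCN8A, 1.38 for SCN3B, 1.06 for SCN2A, 0.90 for SCN9A and 0.64 for SCN3A.

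How the subunits differed among neurons was read with marker UMIs. In cells with a UMI of SLC6A4 or SLC18A2, the transporters that take up and package serotonin, SCN3B was higher than in cells without, by 0.29 (0.23 to 0.35) in WT and 0.35 (0.30 to 0.39) in FKO on the log2 scale. For SCN9A these values were 0.24 and 0.19. SCN3A was 0.25 higher in WT and -0.02 (-0.07 to 0.04) in FKO. Thus the FKO over WT ratio of SCN3A was 0.48 in cells with a transporter UMI and 0.74 in cells without, and SCN8A over SCN3A was 1.38 and 1.06. Cells with and without a marker UMI differ in depth, at medians of 13425 and 12037 UMIs in WT and 7975 and 6490 in FKO.

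Neurons with SLC17A8 (VGLUT3), the glutamate transporter of a known group of serotonin neurons, were read the same way. In cells with an SLC17A8 UMI, SCN2A was at 92.1 against 114 CPM in WT (-0.31) and 174 against 232 in FKO (-0.41), SCN9A at 104 against 116 (-0.17) and 161 against 216 (-0.43), and SCN1A in FKO at 12.3 against 7.42 (0.73). The gaps were wider with a higher limit. In cells with at least 3 SLC17A8 UMIs, a limit chosen after seeing the data, SCN2A was lower than in the other FEV cells, at 75.4 against 111 CPM in WT and 159 against 227 in FKO. SCN9A was at 84.8 against 117 CPM in WT and 121 against 215 in FKO, while SCN3A was not lower, at 154 against 134 and 224 against 212. A lower SCN9A was not particular to these cells, since cells with a GAD1 or GAD2 UMI, the enzymes that make GABA, had 80.4 against 112 CPM in WT and 144 against 206 in FKO. In the cells with at least 3 SLC17A8 UMIs, SCN1A was higher in FKO, at 16.7 against 7.44 CPM (log2 ratio 1.17). In WT it was 3.69 against 2.66 CPM in them (log2 ratio 0.47, interval from -0.01).

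Clusters were built within each library without the 8 subunit genes and are called by their leading genes. Over the 9 FKO clusters of at least 100 cells SCN9A spanned 5.80-fold, against 2.52-fold for SCN2A, 2.27-fold for SCN3A and 1.84-fold for SCN3B. In WT the order was another, with 13.6-fold for SCN2A, 9.44-fold for SCN3A, 8.88-fold for SCN9A and 7.36-fold for SCN3B. Each of these WT spans was set by the cluster with TOP2A, of 106 cells, which was lowest. The other WT clusters of at least 100 cells ran from 44.9 to 144 CPM for SCN2A and from 81.1 to 178 for SCN3A. They ran from 58.4 to 171 for SCN9A and from 76.9 to 160 for SCN3B. In the clusters led by CALB1, SOX2 and RGMB, SCN9A stood at 171 CPM in WT and 332 in FKO, and in those led by SLC17A8 at 74.3 and 57.3, lower in FKO, whereas in cells chosen by SLC17A8 UMIs it was higher in FKO. SCN2A was high in the clusters led by SST or EBF1 and ONECUT genes, at 144 and 290.2 CPM, where SCN9A was 89.8 and 158. Over the FKO clusters SCN3A spanned less than SCN9A or SCN2A but more than SCN3B. In the WT cluster led by SULF1, TOP2A and UBE2C, which holds cycling cells, SCN2A was 10.6 CPM and SCN3A 18.8 CPM, while the FKO cluster with TOP2A and MKI67 was led by COL1A1 and had 162 and 151 CPM. SCN1A reached 30.1 CPM in the SLC17A8 cluster of FKO, which held 16.2% of its UMIs and 6.23% of the cells. Without that cluster the log2 ratio of SCN1A was 1.39 (1.14 to 1.63).

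**Figure D5:**
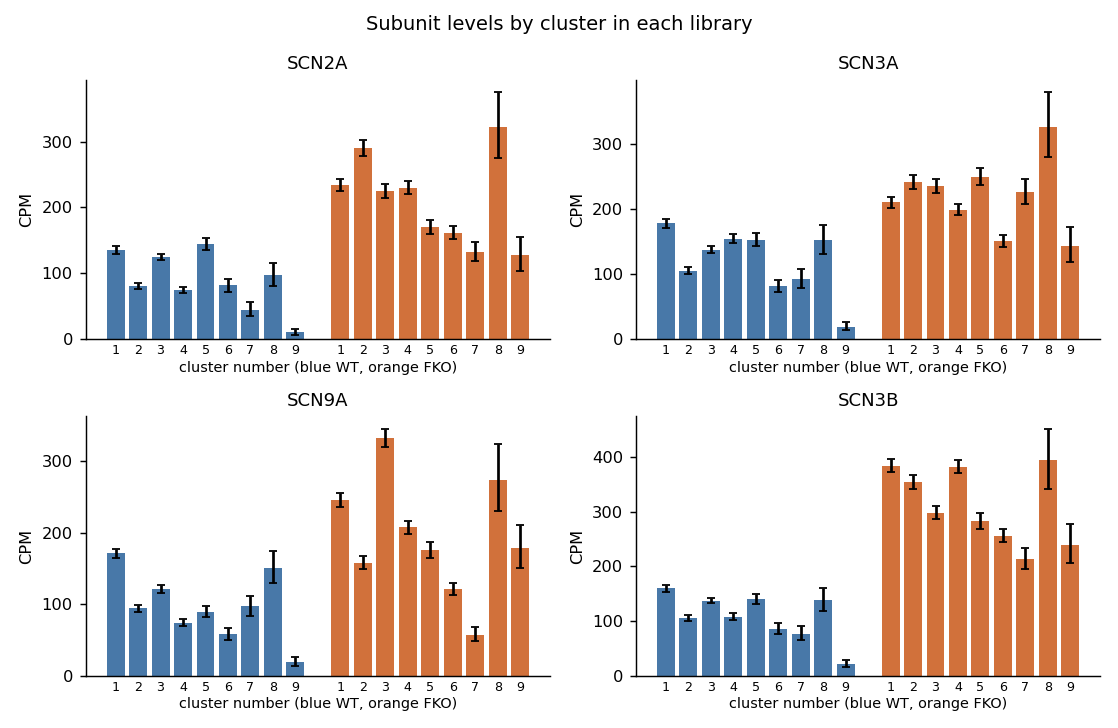
CPM of SCN2A, SCN3A, SCN9A and SCN3B in each cluster of at least 100 cells, with exact 95% Poisson intervals, for the library labelled WT (blue) and FKO (orange); cluster numbers are set within each library. SCN9A peaks in WT cluster 1 and FKO cluster 3 (CALB1, SOX2) and is low in WT cluster 4 and FKO cluster 7 (SLC17A8).

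Genes with the most like pattern over 18 clusters (9 in each library, log2 CPM centred within library) were sought for the 4 subunits with at least 20 CPM in both libraries. High values were common, since 1% of 7973 genes had an r above 0.94 with SCN2A, SCN3A or SCN3B and above 0.82 with SCN9A. For SCN2A they were REEP1, ATP8A2 and PGM2L1, with Pearson's r from 0.98 to 0.99. For SCN3A they were ANK3, CLK1 and UNC79 (r of 0.99), for SCN3B XPR1, PGM2L1 and KIF3A (0.98), and for SCN9A the transcription factor POU2F2 (0.96) and LIN28B (0.93). The clusters share libraries and depth, and r is a description. Without the clusters with TOP2A, SCN2A and SCN3A were at 0.66, SCN2A and SCN3B at 0.90, and SCN3A and SCN9A at 0.35 (16 clusters).

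Proteins that hold the channels in place were read from a list of 14 partners of the axon initial segment, of which 13 had at least 10 CPM. Of these, 11 lay above the median of all genes and 2 below, and 2 were at least 2-fold above (5.64% of all genes were). Before the shift 8 of the 13 were at least 2-fold higher, beside 20.7% of all genes. CNTNAP1, in both counts of 2-fold genes, and SPTBN4 (7.57 and 16.8 CPM), in the count before the shift, reached 10 CPM in FKO alone. They entered through the library where they were higher. NFASC, the neurofascin of the initial segment, went from 30.3 to 101 CPM (log2 ratio 1.74), and CNTNAP1 from 4.0 to 13.1 CPM. ANK3, the ankyrin that anchors the channels, went from 430 to 847 CPM, or 0.51 relative to all genes. The 2 below were FGF13 and FGF14, intracellular proteins that bind the channel's tail, at -0.36 and -0.54 relative to all genes. The other 8 (ANK2, SPTBN1, SPTBN4, SPTAN1, NRCAM, CNTN1, CNTNAP2 and FGF12) were from 0.37 (SPTAN1) to 0.97 (ANK2). Of the 13, CNTNAP1 is short, at 17.2 kb, and the others are 81.1 kb or longer.

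The sodium leak channel, which sets the resting potential of slow pacemaking neurons, had 5 of 5 genes above the median of all genes and none of them at least 2-fold above, beside 5.64% of all genes. Before the shift 4 were at least 2-fold higher, beside 20.7%. UNC80 (9.52 and 24.1 CPM) and NALF2 (5.50 and 11.1 CPM), among these, reached 10 CPM in FKO alone. They entered through the library where they were higher. NALF2 is 27.3 kb and the other 4 are over 200 kb, a length at which genes had a median log2 ratio of 0.95, above NALCN's 0.73. NALCN, its pore, went from 16.3 to 26.9 CPM (0.26 relative to all genes) and its partner NALF1 from 39.1 to 106 CPM (0.97). UNC79, UNC80 and NALF2 were at 0.78, 0.87 and 0.54. The β subunits of the sodium pump, which restores the gradient that the channels use, were at -0.11 (ATP1B1), 0.18 (ATP1B2) and -0.52 (ATP1B3) relative to all genes.

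Regulators of channel RNA or protein included 7 measured genes, with 6 above the median of all genes and 1, CELF4, at least 2-fold above, beside 5.64% of all genes (3 before the shift, beside 20.7%). CELF4, an RNA-binding protein known to bind sodium channel transcripts, went from 260.1 to 776 CPM. Its gene is 323 kb, and 17.5% of genes above 200 kb were at least 2-fold above the median. NEDD4L, a ubiquitin ligase that removes channels from the membrane, went from 85.1 to 201 CPM. The others were from -0.11 (PTBP2), 0.08 (PTBP1) and 0.09 (RCOR1) to 0.38 (RBFOX2) and 0.92 (RBFOX3) relative to all genes. REST, the repressor that keeps sodium channel genes silent outside neurons, was at 3.61 and 8.70 CPM, below the limit of 10. Of the 7 genes of immature neurons, 4 lay above and 3 below the median of all genes, with SOX11 at 1.16 and STMN1 at -0.74 and, between them, DCX, TUBB3, SOX4, IGFBPL1 and TUBB2B. Of 6 genes of mature neurons measured, 5 lay above and 1 below. None of these was at least 2-fold above, and 1 of the immature neuron genes was, beside 5.64% of all genes. Before the shift 2 of the immature and 3 of the mature neuron genes were at least 2-fold higher, beside 20.7%. RBFOX3, counted before the shift among both the regulators and the mature neuron genes, reached 10 CPM in FKO alone (8.95 and 23.4 CPM). RBFOX3, SV2A (0.67), SYN1 (0.63), SNAP25 (0.10) and SYT1 (0.03) lay above and CAMK2B (-0.14) below. Other channel genes of the family were low. SCN7A and SCN11A had 151 and 35 UMIs in WT and 128 and 92 in FKO. SCN10A had 0 UMIs in 5629 WT and 6352 FKO cells. That allows up to 0.0533% and 0.0472% of cells with a UMI (3 counts of the total).

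Start regions of 6 of the 8 genes were in the RefSeq table used (GRCh38.p14), and they differed in base composition. Shown are bases before an annotated start of SCN2A (1 of 2 in the table), the least GC-rich of the pore subunits here, and SCN8A, the most GC-rich, as capitals marking CpG pairs. The SCN2A stretch is chr2:165239164-165239371 and the SCN8A stretch is chr12:51591000-51591223, both plus strand and both inside the gene's GENCODE span. Each ends where an annotated exon begins, and the SCN8A stretch is also cut at its start (its window begins at 51590983):

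SCN2A: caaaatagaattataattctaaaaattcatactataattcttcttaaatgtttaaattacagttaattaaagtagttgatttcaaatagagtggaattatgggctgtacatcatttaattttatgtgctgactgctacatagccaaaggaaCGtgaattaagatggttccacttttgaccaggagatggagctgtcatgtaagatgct

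SCN8A: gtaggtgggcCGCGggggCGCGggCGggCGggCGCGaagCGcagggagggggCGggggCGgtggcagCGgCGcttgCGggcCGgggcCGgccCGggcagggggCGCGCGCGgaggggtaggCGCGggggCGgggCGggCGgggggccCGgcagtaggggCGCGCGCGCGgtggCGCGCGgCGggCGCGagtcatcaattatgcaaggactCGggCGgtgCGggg

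The 300 base window shown for SCN2A was 31.7% GC, with 2 CpG, and 1.74% of 35116 windows had less GC. Its other window was 33.3% GC. That of SCN8A was 84% GC, with 52 CpG, and 99.5% had less. SCN9A was at 73.3% and the windows of SCN1A at 37% and 46.3%. Both parts of the REST site, TTCAGCACC and GGACAGC, searched on both strands, were in none of the windows of the 6 genes, against 0.376% and 6.03% of all windows. That says only that these letters are not in these windows.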

How the data were processed

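For 2 libraries, the authors deposited UMI counts for each gene and barcode (Chromium 3' kit version 3, Cell Ranger 7.0 in the submitters' notes and 7.1.0 in the matrix headers, GRCh38), with no normalization. Whether intronic reads were counted was not given in the sources used here. Barcodes were required to hold 1000 UMIs, 500 genes and a mitochondrial share of 10% or less. Doublets were scored by Scrublet (scanpy 1.11.5), and 0.8% per 1000 barcodes were removed. UMIs of FEV-positive cells were summed to CPM. Ratios used no pseudocount, and 0 was replaced by 3 counts. Intervals were Poisson, Clopper-Pearson or conditional on summed counts. With 1 library per group no test was made, and cells are not replicates. Gene lengths came from GENCODE 29 (99.5% matched). Members and lists were chosen with earlier results of these data known. All 8 members, measured list genes (10 CPM or more) and, for each member with 20 CPM or more in both libraries, the 3 genes of most like pattern are named; others named were chosen after their values were seen. A few genes that this rule names are not reported here. The procedures were tested on simulated data. Of the alternatives, 15 were planned and 5 added after seeing the data.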

Additional observations from a re-analysis of the deposited data

Results flagged for a closer look

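SCN9A in the clusters led by SLC17A8 had a log2 ratio of FKO over WT of -0.38 (-0.64 to -0.12), opposite in direction to the other 5 pairs of clusters with shared leading genes. The difference was not tested. The pair was matched on 4 shared leading genes, and WT cluster 4 holds 1011 cells against 396 in FKO cluster 7. In cells with at least 3 SLC17A8 UMIs, a limit chosen after seeing the data, the ratio was 0.51 (0.38 to 0.64).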

How the results depend on the processing

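The alternatives changed limits on cells, doublets, FEV, weighting, depth and scaling. The members' median relative ratio (1.02) was 0.74 with at most 5% mitochondrial UMIs, 0.70 with depth bins weighted equally, 0.81 without the bin of 1000 to 5000 UMIs, and 0.60 over the 5 members with at least 10 CPM, where 5 members were above the median of all genes. SCN8A over SCN3A (1.22) was 0.92 with at most 5% mitochondrial UMIs, 1.08 with cells weighted equally and 1.02 with depth bins weighted equally. SCN2A over SCN3A (0.43) was 0.50 with a TPH2 UMI as well, 0.56 with depth bins weighted equally and 0.53 without the lowest bin. SCN2B over SCN3B (0.72) was 0.085 with at most 5% mitochondrial UMIs and 0.10 with depth bins weighted equally (the lowest with 0 WT UMIs put at 3). It was -0.090 with cells thinned to 2000 UMIs, a single random draw. SCN4B was at -0.87 (-1.34 relative to all genes) with at most 5% mitochondrial UMIs, a lower bound with 0 UMIs in WT put at 3 counts against 12 UMIs in FKO, and no reversal of its levels. The causes were not tested. The other members kept their direction in all 15 alternatives run on their ratios. These ran from 0.51 to 0.84 for SCN3A, from 1.57 to 1.97 for SCN8A and from 1.11 to 1.60 for SCN1A. SCN2B (2.12) ran from 1.33, in a single random thinning to 2000 UMIs, to 2.46, and relative to all genes from 0.87 to 1.98. No paired analysis was possible because each group has 1 library and no test was made. Depth limits SCN4B, SCN2B and SCN1A.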
